A study of Homo sapiens with 3 samples.

Results

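Compound 2 was set directly against compound 1 in HCC827 cells, a line established from a human lung adenocarcinoma and dependent on a mutated EGFR. Both compounds were given at 5 μM for 24 h and the cells were profiled by RNA sequencing, with 1 library for compound 1, 1 for compound 2 and 1 for the DMSO vehicle, for which the labels name no duration. The series title calls the compounds daphnane diterpenoids, plant-derived ring molecules, and ties them to the DNA damage response run by the ATR kinase. The labels give neither compound a chemical name, so no difference in structure is stated here. All cells carried the same EGFR-driven background, and nothing says that more than a single culture stood behind a library. The genes compared were the 11600 of 20332 listed whose value averaged at least 1 TPM over the 3 libraries. TPM, transcripts per 1000000, states a gene's share of all transcripts after correction for length. For each gene, the log2 ratio of TPM + 1 in the compound 2 library to TPM + 1 in the compound 1 library was taken. Just inside the cut on level lay ZMYND15, at 0.623 TPM in the DMSO library, 0.952 TPM after compound 1 and 1.43 TPM after compound 2, and just outside it CHD9NB, at 2.20, 0.467 and 0.33 TPM. The libraries have no replicates, so the 1 pair of compounds was compared as values and without any test, and none of the differences below can be told from the variation between cultures.

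Some background helps in reading the gene groups. ATR is recruited to single-stranded DNA at stalled replication forks, activates the kinase CHK1 and so holds back entry into mitosis. NF-kB is a family of transcription factors held inactive in the cytoplasm by inhibitor proteins of the IkB family. Once released it switches on chemokine and cytokine genes, which call in neutrophils and other leukocytes, together with the genes of its own inhibitors. The integrated stress response, through the transcription factor ATF4, raises genes for amino acid uptake and synthesis when translation is checked. NRF2 is the transcription factor that raises detoxifying enzymes when its partner KEAP1 is modified by oxidants or electrophiles.

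The label of the cells was checked against marker genes. Of 20 epithelial markers all 20 were above the cut, among them the keratin gene KRT18, at 4428 TPM in the DMSO library, 1956 TPM after compound 1 and 1739 TPM after compound 2, and the adhesion gene EPCAM, at 611 TPM in the DMSO library, 778 TPM after compound 1 and 695 TPM after compound 2. In the lung list 7 of 15 were above it, including the aspartic protease gene NAPSA at 276 TPM in the DMSO library, 88.5 TPM after compound 1 and 82.7 TPM after compound 2, while the surfactant genes SFTPA1 and SFTPC were listed at 0 in all 3 libraries. No endothelial marker of 8 reached the cut. Of 10 fibroblast markers 2 did, with DCN, LUM and PDGFRA listed at 0. Leukocyte markers had 4 of 12, with CD68 the only one at a high level, and CD68 is a lysosomal gene of many cell types whose 31-base stretches are shared with another annotated gene for 93.7%. PTPRC, the pan-leukocyte CD45 gene, was at 0.064 TPM in the DMSO library, 0.269 TPM after compound 1 and 0 after compound 2.

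The compound libraries were close to each other in most genes. The median log2 ratio over the 11600 genes was -0.007, 50% of genes lay between -0.17 and 0.15, and 94.3% (10936 genes) differed by less than 1.5-fold. Compound 2 was at least 2-fold above compound 1 in 34 genes (0.293%) and at least 2-fold below it in 64 (0.552%). At a threshold of 1.5-fold the counts were 300 (2.59%) and 364 (3.14%), and 5642 genes (48.6%) had a ratio above 0. Against the DMSO library each compound stood much further away. At least 2-fold, 1707 genes were higher (14.7%) and 939 lower (8.09%) after compound 1, and 1467 were higher (12.6%) and 761 lower (6.56%) after compound 2. Counts within the gene lists below are to be read against these shares. With 94.3% of all genes within 1.5-fold, few or no members past it are usual for a list. The nearest genes inside the 2-fold threshold were NUAK2 (1.00) and DNAJB9 (-1.02), and the nearest outside were CTSL (-0.99) and C15orf40 (-0.99).

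Low genes carried many of the differences past 2-fold. Of the 98 genes, 45 averaged under 5 TPM, 12 of the 34 higher and 33 of the 64 lower. The cut used the mean that includes the compared libraries, so a low gene could pass only through the library where it was high. TRIM54, at 0.06 TPM in the DMSO library, 2.78 TPM after compound 1 and 0.512 TPM after compound 2, is such a gene. In that lowest class of 1981 genes 2.27% were past 2-fold, against 0.778% of 3598 genes between 5 and 20 TPM, 0.436% of 4353 between 20 and 100 TPM and 0.36% of 1668 at 100 TPM or more. Read depth cannot be had from TPM, so no interval stands beside a value, and the larger counting error expected of low genes was not measured. The ratio was only weakly related to transcript length (Spearman -0.035 over 11542 genes), GC content (0.10) or mean TPM (0.10), and genes are not independent. The 13 mitochondrially encoded genes took 4.24% of the DMSO library, 2.00% of the compound 1 library and 2.74% of the compound 2 library.

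**Figure D1:**
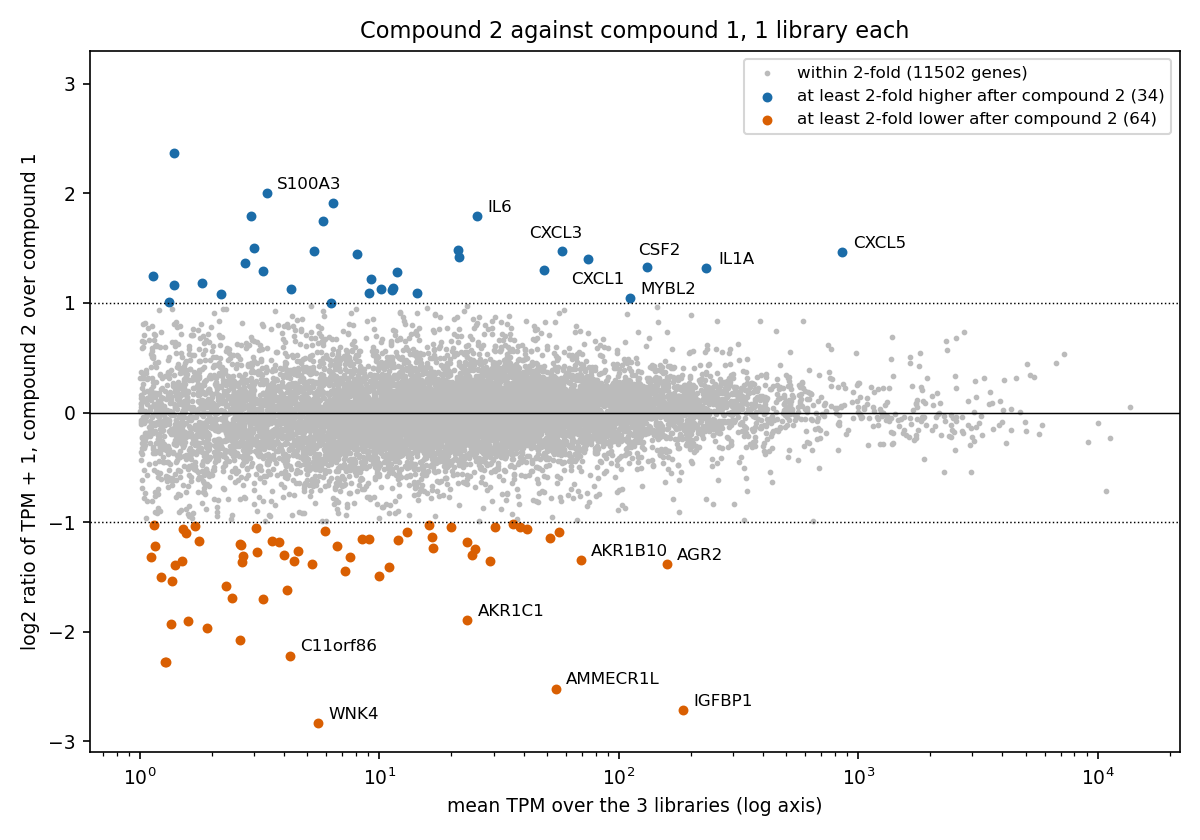
Each point is 1 of 11600 genes, with the mean TPM over the 3 libraries on a log axis and, on the vertical axis, the log2 ratio of TPM + 1 in the compound 2 library to that in the compound 1 library. Dotted lines mark 2-fold, and the 34 blue and 64 orange genes lie past them, with the cytokine genes IL6, CXCL5 and IL1A on the upper side and IGFBP1, AMMECR1L and AKR1C1 on the lower side.

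Chemokine genes were higher after compound 2, as were a part of the cytokine and NF-kB pathway genes. Of 9 chemokine genes measured, 7 were higher by 1.5-fold or more, 3 of them by 2-fold, and the list median was 0.74, the highest of the lists with at least 5 members measured, where all genes had -0.007. The CXC chemokines measured that draw neutrophils, CXCL1, CXCL2, CXCL3, CXCL5 and CXCL8, were all among the 7. The lists were chosen with earlier results of these data known, so the rank of this list is a description and not a test. CXCL5 (ENSG00000163735, chromosome 4, 73995642 to 73998779) was the most abundant, at 615 TPM in the DMSO library, 521 TPM after compound 1 and 1436 TPM after compound 2. Its log2 ratio between the compounds was 1.46, and the compound 1 value lay below that of the DMSO library while the compound 2 value lay above it. CXCL3 (ENSG00000163734, chromosome 4, 74036589 to 74038807) stood at 17.2 TPM in the DMSO library, 40.9 TPM after compound 1 and 116 TPM after compound 2, a ratio of 1.48. The neutrophil chemokine CXCL1 (ENSG00000163739, chromosome 4, 73869393 to 73871242) stood at 109.9 TPM in the DMSO library, 30.3 TPM after compound 1 and 82.004 TPM after compound 2, a ratio of 1.41. CXCL1 was thus highest in the DMSO library, with compound 2 nearer to that level than compound 1.

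CXCL8, which encodes interleukin 8, was at 26.9 TPM in the DMSO library, 412 TPM after compound 1 and 733 TPM after compound 2 (ratio 0.83). CXCL2 (0.74), the dendritic and T cell attractant CCL20 (0.72) and the transmembrane chemokine CXCL16 (0.61) were between 1.5-fold and 2-fold higher. CXCL2 was at 60.7 TPM after compound 1 and 102 TPM after compound 2, and CCL20 at 31.5 TPM after compound 1 and 52.6 TPM after compound 2. The remaining members differed little, with CCL28 at 4.88 TPM after compound 1 and 5.71 TPM after compound 2 and CX3CL1, the fractalkine gene, at 3.34 TPM after compound 1 and 3.20 TPM after compound 2. CX3CL1 stood at 17.3 TPM in the DMSO library, far above either compound. Another 5 chemokine genes of the list, CCL2, CCL5, CXCL6, CXCL10 and CXCL11, were under the cut on level.

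Among 18 cytokine and interleukin genes measured, 7 were 1.5-fold or more higher, 3 of them by 2-fold, and 2 were 1.5-fold or more lower (median 0.23, and 0.15 to 0.41 under the other settings of pseudocount, filter, scaling and trend). IL6 (ENSG00000136244, chromosome 7, 22725884 to 22732002), the fever and acute-phase cytokine, stood at 3.40 TPM in the DMSO library, 15.9 TPM after compound 1 and 57.6 TPM after compound 2. That ratio of 1.79 was the largest of any cytokine gene. IL1A (ENSG00000115008, chromosome 2, 112773915 to 112784590), the interleukin 1 alpha gene, stood at 5.79 TPM in the DMSO library, 197 TPM after compound 1 and 493 TPM after compound 2 (ratio 1.32). CSF2 (ENSG00000164400, chromosome 5, 132073790 to 132076170), which encodes the granulocyte and macrophage growth factor GM-CSF, stood at 24.7 TPM in the DMSO library, 104 TPM after compound 1 and 264 TPM after compound 2 (ratio 1.33). In all 3 of these genes the order was the DMSO library, then compound 1, then compound 2.

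The interleukin 1 beta gene IL1B was at 5.604 TPM in the DMSO library, 34.8 TPM after compound 1 and 61.8 TPM after compound 2 (0.81). IL32 (0.77), EBI3 (0.72) and IL36G (0.95), an epithelial interleukin 1 relative listed at 0 in the DMSO library, were also at least 1.5-fold higher, and IL23A was at 51.1 TPM after compound 1 and 75.8 TPM after compound 2 (0.56). The list was not uniform. IL11, an interleukin 6 relative, was at 18.2 TPM after compound 1 and 9.57 TPM after compound 2 (-0.86), and IL15 at 6.55 TPM after compound 1 and 3.68 TPM after compound 2 (-0.69). The interleukin 1 receptor antagonist gene IL1RN, which blocks the same receptor that IL1A and IL1B bind, was lower too (-0.52). LIF (0.27), IL18 (0.015) and TNFSF15 (-0.089) differed little.

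A list of cytokine receptors and decoys, which are not all receptors of the ligands above, differed little between the compounds. Of 19 receptor and decoy genes none was past 1.5-fold, and 94.3% of all genes were likewise within it. The ratio was below 0 in 14 of the 19, and the median was -0.12. The shared interleukin 6 receptor chain gene IL6ST was at 18.97 TPM in the DMSO library, 154 TPM after compound 1 and 146 TPM after compound 2. The interleukin 6 receptor gene IL6R was at 27.8 TPM after compound 1 and 22.2 TPM after compound 2, and the tumour necrosis factor receptor gene TNFRSF1A at 173 TPM after compound 1 and 130.1 TPM after compound 2 (-0.41). Both were a little lower after compound 2.

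Members of the NF-kB pathway itself were measured in full. All 19 listed genes were above the cut, 15 with a ratio above 0, 5 of them by 1.5-fold or more, and none lower by that much (median 0.41). Of all genes 2.59% were at least 1.5-fold higher. Against the DMSO library 8 of the 19 were at least 2-fold higher after compound 1 and 12 after compound 2, where all genes had 14.7% and 12.6%. The subunit genes stood between 0.087 and 0.42, with RELA at 0.087, REL at 0.094, RELB at 0.13, NFKB1 at 0.41 and NFKB2 at 0.42. Feedback and regulator genes ranged more widely, and among them NFKBIB (0.28), CYLD (-0.11) and BIRC2 (-0.092) were within 1.5-fold. TRAF1 (ENSG00000056558, chromosome 9, 120902393 to 120929173), an adaptor of tumour necrosis factor receptors, stood at 0.726 TPM in the DMSO library, 41.7 TPM after compound 1 and 104 TPM after compound 2, a ratio of 1.30. Among the inhibitors, NFKBIE, the IkB epsilon gene, was at 8.05 TPM in the DMSO library, 14.8 TPM after compound 1 and 28.5 TPM after compound 2 (0.90). NFKBIA, which encodes IkB alpha, was at 113 TPM in the DMSO library, 232 TPM after compound 1 and 356 TPM after compound 2 (0.62).

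The deubiquitinase gene TNFAIP3, which encodes the brake A20, was at 6.54 TPM in the DMSO library, 50.8 TPM after compound 1 and 84.8 TPM after compound 2 (0.73), TNFAIP2 was at 99.5 TPM after compound 1 and 178 TPM after compound 2 (0.83), and the ubiquitin ligase gene BIRC3 was at 98.6 TPM after compound 1 and 147 TPM after compound 2 (0.57). Those feedback genes shared the order of IL6 and IL1A except TNFAIP2, whose compound 1 value lay below its DMSO value of 161 TPM. At the other end of the list stood BCL3 (-0.25) and MAP3K8 (-0.25). The survival gene BCL2A1, in the apoptosis list, was at 62.8 TPM in the DMSO library, 155 TPM after compound 1 and 259 TPM after compound 2 (0.73). It was the only member of 19 apoptosis regulators past 1.5-fold.

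**Figure D2:**
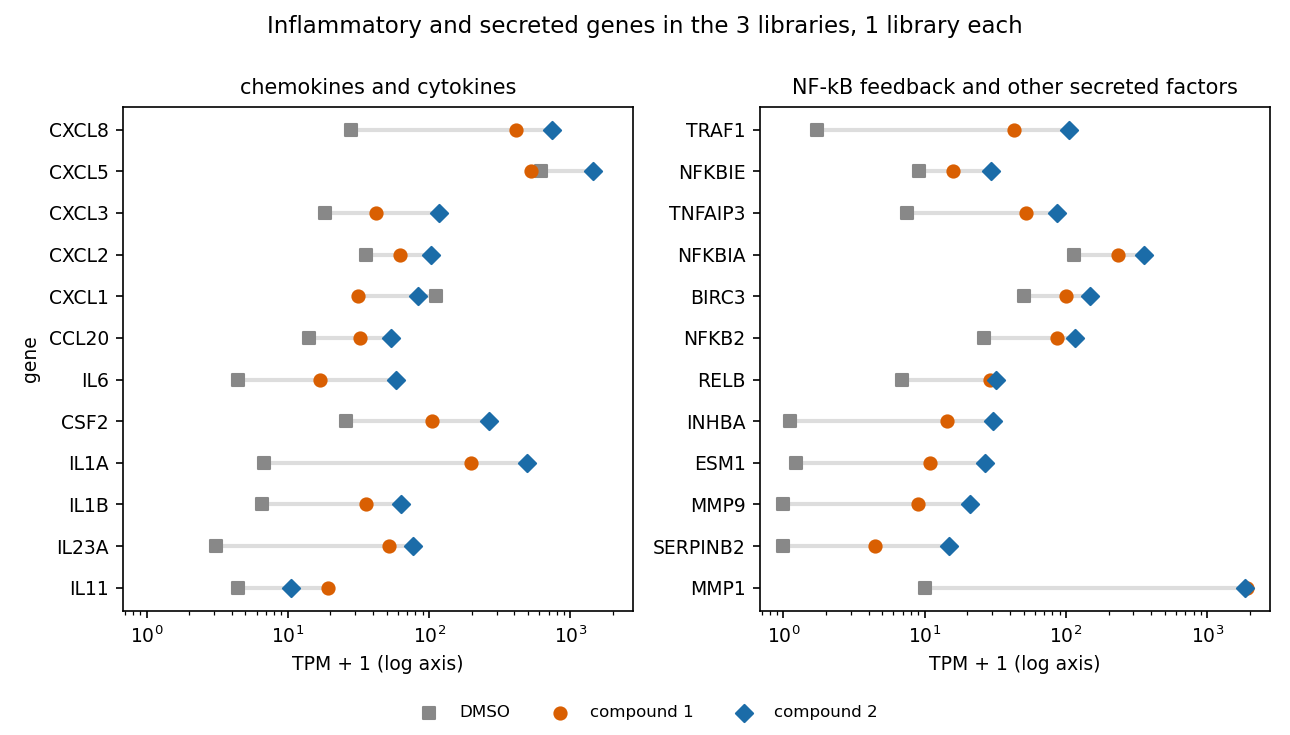
Levels as TPM + 1 on a log axis in the DMSO (grey square), compound 1 (orange circle) and compound 2 (blue diamond) libraries, 1 library each, for chemokine and cytokine genes at left and for NF-kB feedback and other secreted factor genes at right. Compound 2 lies right of compound 1 in most rows, IL11 is reversed, and the MMP1 points coincide at 1893 and 1852 TPM.

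The promoters of 5 chemokine and cytokine genes past 2-fold are given because NF-kB is known to bind several of them. IL1A, also past 2-fold, held no match to the motif shown in the 250 bases before its start and is left out. Below are the last 130 bases before the start site in the RefSeq table (GRCh38.p14), read 5′ to 3′ on the gene's own strand. Capitals mark every match to a short form of the NF-kB motif on either strand, GGG and CC with any 5 bases between them, and where matches overlap they run together.
CXCL1 (chr4:73869263-73869392, plus strand): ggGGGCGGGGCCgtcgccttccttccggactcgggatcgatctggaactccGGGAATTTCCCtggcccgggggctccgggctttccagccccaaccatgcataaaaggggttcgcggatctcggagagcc
CXCL3 (chr4:74038690-74038819, minus strand): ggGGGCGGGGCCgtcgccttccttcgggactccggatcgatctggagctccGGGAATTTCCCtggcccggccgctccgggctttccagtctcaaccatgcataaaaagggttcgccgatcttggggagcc
CXCL5 (chr4:73998678-73998807, minus strand): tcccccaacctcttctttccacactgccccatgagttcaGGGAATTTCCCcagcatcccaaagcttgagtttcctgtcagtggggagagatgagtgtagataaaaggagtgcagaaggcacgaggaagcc
IL6 (chr7:22727070-22727199, plus strand): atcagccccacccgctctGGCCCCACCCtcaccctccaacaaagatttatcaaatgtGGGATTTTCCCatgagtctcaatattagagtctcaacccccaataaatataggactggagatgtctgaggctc
CSF2 (chr5:132073659-132073788, plus strand): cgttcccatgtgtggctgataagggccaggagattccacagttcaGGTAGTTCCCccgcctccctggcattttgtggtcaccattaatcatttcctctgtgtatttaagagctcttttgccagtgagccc

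This form is loose. In the 250 bases before the start it stood, on either strand, in 53.7% of all 27305 promoters and in 70.2% of the 9458 kept genes that had one. It stood in 17 of 27 genes at least 2-fold higher after compound 2 (63%) and in 26 of 43 at least 2-fold lower (60.5%). A narrower form, GGG and TTTCC with any 2 bases between them, whose matches are a subset of those of the loose form and which was added after seeing the data, stood in 2.1% of the kept genes and 1.7% of all promoters. It was found in 4 of the 27 higher genes, CXCL1, CXCL3, CXCL5 and IL6, and in 2 of the 43 lower genes, TRIM31 and U2AF1L4. In the lists it stood in 5 of 7 chemokine, 6 of 17 NF-kB pathway, 2 of 13 cytokine, 1 of 18 NRF2, 0 of 20 integrated stress response and 0 of 6 aldo-keto reductase promoters. The loose form stood in 7 of 7, 15 of 17, 7 of 13, 13 of 18, 12 of 20 and 6 of 6 of the same lists. CXCL1 and CXCL3 share much of the stretch shown, so they are not independent. TGANTCA, the AP-1 motif, was in 3 of the 27 higher and 5 of the 43 lower genes, against 3.8% of kept genes and 6.6% of all promoters.

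Secreted factors outside the chemokine and cytokine lists lay in both directions. The TGF-beta, activin and BMP ligands had 3 of 11 members at least 1.5-fold higher and 1 lower, and the secreted angiogenic factors likewise 3 of 11 higher and 1 lower, the lower members being GDF15 (-1.15) and ADM (-0.63). INHBA (ENSG00000122641, chromosome 7, 41667168 to 41705834), the activin A subunit gene, stood at 0.115 TPM in the DMSO library, 13.4 TPM after compound 1 and 29.6 TPM after compound 2 (1.09). ESM1, an endothelial and tumour proteoglycan gene, was at 0.221 TPM in the DMSO library, 9.91 TPM after compound 1 and 25.5 TPM after compound 2 (1.28). The gelatinase gene MMP9 was listed at 0 in the DMSO library, at 7.97 TPM after compound 1 and 19.8 TPM after compound 2 (1.22). SERPINB2, the gene of plasminogen activator inhibitor 2, was likewise listed at 0 in the DMSO library and was at 3.44 TPM after compound 1 and 13.9 TPM after compound 2 (1.75). INHBA, ESM1, MMP9 and SERPINB2 were low or at 0 without compound and highest after compound 2. The endothelin gene EDN1 (0.79) and the lymphatic growth factor gene VEGFC (0.82) were at least 1.5-fold higher.

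Several genes above DMSO, by unlike amounts, stood at close levels after the compounds. The collagenase gene MMP1 was at 9.04 TPM in the DMSO library, 1893 TPM after compound 1 and 1852 TPM after compound 2 (-0.032), and the urokinase gene PLAU at 642 TPM in the DMSO library, 2512 TPM after compound 1 and 2423 TPM after compound 2 (-0.052). The leukocyte adhesion gene ICAM1 was at 169.96 TPM in the DMSO library, 695 TPM after compound 1 and 826 TPM after compound 2 (0.25). CDKN1A, the p21 gene, was at 23.2 TPM in the DMSO library, 349 TPM after compound 1 and 328 TPM after compound 2 (-0.088). EGFR, the driver of the line, was at 680 TPM in the DMSO library, 1579 TPM after compound 1 and 1685 TPM after compound 2 (0.094). The protease and plasminogen lists had medians of -0.032 and 0.23 (the latter 0.13 to 0.25 under the other settings), with 2 of 11 and 2 of 8 members at least 1.5-fold higher.

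Genes of the integrated stress response ran the other way. Of 23 measured, 21 had a ratio below 0, 10 were at least 1.5-fold lower and none at least 1.5-fold higher after compound 2 (median -0.49). Of all genes 3.14% were at least 1.5-fold lower. Against the DMSO library 14 of the 23 were at least 2-fold higher after compound 1 and 10 after compound 2, where all genes had 14.7% and 12.6%. ATF4 itself was at 477 TPM in the DMSO library, 811 TPM after compound 1 and 638 TPM after compound 2 (-0.35). GDF15 (ENSG00000130513, chromosome 19, 18374731 to 18389176), a secreted stress cytokine, stood at 26.9 TPM in the DMSO library, 88.1 TPM after compound 1 and 39.2 TPM after compound 2, a ratio of -1.15. Its compound 2 level was nearer to DMSO than to compound 1. The pseudokinase gene TRIB3, a feedback inhibitor of ATF4, was at 79.1 TPM in the DMSO library, 298 TPM after compound 1 and 158 TPM after compound 2 (-0.91). DDIT3, the CHOP gene, was at 16.6 TPM in the DMSO library, 98.7 TPM after compound 1 and 56.2 TPM after compound 2 (-0.80).

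Enzymes of amino acid synthesis lay in the same order. CTH, the cystathionine gamma-lyase gene that makes cysteine, was at 10.2 TPM in the DMSO library, 137 TPM after compound 1 and 77.4 TPM after compound 2 (-0.82), and the serine synthesis gene PHGDH at 76.5 TPM in the DMSO library, 139 TPM after compound 1 and 84.7 TPM after compound 2 (-0.70). The asparagine synthetase gene ASNS was at 59.3 TPM in the DMSO library, 394 TPM after compound 1 and 280.2 TPM after compound 2 (-0.49). Each was highest after compound 1 and lowest in the DMSO library. SESN2 (-0.77), STC2 (-0.70), the kinase gene EIF2AK3, which encodes PERK (-0.70), NUPR1 (-0.77) and CEBPG (-0.61) were also at least 1.5-fold lower. The exceptions of the list were ATF5 (0.25) and EIF2AK4, which encodes GCN2 (0.24).

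Amino acid transporters had 12 of 13 ratios below 0 (median -0.14) and 2 members at least 2-fold lower. SLC7A11 (ENSG00000151012, chromosome 4, 138164097 to 138242349), the cystine importer that supplies glutathione synthesis, stood at 2.44 TPM in the DMSO library, 77.2 TPM after compound 1 and 36.9 TPM after compound 2 (-1.04). The glycine transporter gene SLC6A9 was at 5.15 TPM in the DMSO library, 29.4 TPM after compound 1 and 13.97 TPM after compound 2 (-1.02), and SLC1A4 was at 8.997 TPM after compound 1 and 5.09 TPM after compound 2 (-0.71). The leucine transporter gene SLC7A5, at 454 TPM after compound 1 and 426 TPM after compound 2, differed little. Aminoacyl-tRNA synthetase genes, which charge transfer RNAs, had 13 of 20 ratios below 0 and 2 members at least 1.5-fold lower, MARS1 (-0.63) and WARS1 (-0.60), with a median of -0.17.

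In the unfolded protein response, the arm of stress signalling in the endoplasmic reticulum, the median was -0.11, with 1 gene of 22 at least 2-fold lower. That gene was DNAJB9, a co-chaperone of BiP, at 5.19 TPM in the DMSO library, 69.2 TPM after compound 1 and 33.7 TPM after compound 2 (-1.02). HSPA5, the BiP gene, was at 558 TPM in the DMSO library, 1068 TPM after compound 1 and 846 TPM after compound 2 (-0.34), and SDF2L1 stood apart at 0.65. Autophagy and lysosome genes had 17 of 22 ratios below 0 (median -0.15). The autophagosome gene GABARAPL1 was at 20.2 TPM in the DMSO library, 101 TPM after compound 1 and 47.02 TPM after compound 2 (-1.09), and the cathepsin L gene CTSL at 143 TPM in the DMSO library, 1197 TPM after compound 1 and 601 TPM after compound 2 (-0.99). The adaptor gene SQSTM1, at 1876 TPM after compound 1 and 1536 TPM after compound 2, was less different (-0.29). CREBRF, a regulator of the same stress pathways, was at 0.319 TPM in the DMSO library, 8.73 TPM after compound 1 and 2.95 TPM after compound 2 (-1.30).

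The 3 largest differences of all genes compared were lower ones. IGFBP1 (ENSG00000146678, chromosome 7, 45888357 to 45893668), which encodes a secreted insulin-like growth factor binding protein, stood at 31.5 TPM in the DMSO library, 458 TPM after compound 1 and 69.05 TPM after compound 2, a ratio of -2.71. WNK4 (ENSG00000126562, chromosome 17, 42780678 to 42796936), a kinase that regulates salt transporters, stood at 0.433 TPM in the DMSO library, 14.9 TPM after compound 1 and 1.24 TPM after compound 2 (-2.83). It was thus near the cut on level or below it outside the compound 1 library. AMMECR1L (ENSG00000144233, chromosome 2, 127861630 to 127885922) stood at 11.7 TPM in the DMSO library, 130.3 TPM after compound 1 and 21.9 TPM after compound 2 (-2.52). Their log2 ratios to DMSO lay between 3.37 and 3.82 after compound 1 and between 0.64 and 1.11 after compound 2. The sequence of these 3 was shared with other genes for at most 2.2%. IGFBP3 (-0.84) and IGFBP6 (-0.78) were lower too, but below their DMSO levels after either compound, with IGFBP3 at 439 TPM in the DMSO library, 299 TPM after compound 1 and 167 TPM after compound 2.

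NRF2 targets were lower after compound 2 in small steps. Of 23 genes 22 had a ratio below 0, 2 were at least 1.5-fold lower and the median was -0.29. Besides SLC7A11, UGDH, which makes the sugar acid used in glucuronidation, was at 143 TPM in the DMSO library, 554 TPM after compound 1 and 336 TPM after compound 2 (-0.72). The glutathione synthesis genes GCLC and GCLM stood at -0.48 and -0.42, and GCLM was at 42.6 TPM in the DMSO library, 148 TPM after compound 1 and 111 TPM after compound 2. NQO1 was at 1247 TPM in the DMSO library, 1134 TPM after compound 1 and 926 TPM after compound 2 (-0.29), the thioredoxin reductase gene TXNRD1 at 857 TPM in the DMSO library, 3559 TPM after compound 1 and 3143 TPM after compound 2 (-0.18), and the haem oxygenase gene HMOX1 at 10.1 TPM in the DMSO library, 55.7 TPM after compound 1 and 51.6 TPM after compound 2 (-0.11). The levels of NFE2L2, the NRF2 gene (-0.15), and of KEAP1 (-0.12) were close. The antioxidant response element TGACNNNGC stood in 5 of 18 promoters of this list and in 12.1% of kept genes, and in 1 of the 27 higher and 2 of the 43 lower genes past 2-fold.

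Aldo-keto reductases, enzymes that reduce carbonyl groups on steroids and aldehydes, had 3 of 7 members at least 2-fold lower, against 0.552% of all genes. AKR1C1 (ENSG00000187134, chromosome 10, 4963253 to 4983283) stood at 2.07 TPM in the DMSO library, 54.1 TPM after compound 1 and 13.8 TPM after compound 2 (-1.89). AKR1C2 was at 0.324 TPM in the DMSO library, 62.6 TPM after compound 1 and 23.9 TPM after compound 2 (-1.35). They share 35.5% and 63.5% of their 31-base stretches with other genes, mostly each other, and their sum was at 2.39 TPM in the DMSO library, 117 TPM after compound 1 and 37.7 TPM after compound 2, a ratio of -1.60. Both genes were lower, so their sum had to be lower too and is no separate check on either gene. AKR1C3, with 12.3% of its stretches in AKR1C2, was not in that sum, and the assignment of reads among these genes was not tested. AKR1B10 was at 132 TPM in the DMSO library, 55.03 TPM after compound 1 and 21.1 TPM after compound 2 (-1.34, 35.4% shared), lower than DMSO after compound 1 and lower still after compound 2. AKR1C3 (-0.48) and AKR1A1 (-0.41) were lower by less than 1.5-fold, and AKR1B1 (0.10) and AKR7A2 (0.049) differed little.

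Xenobiotic enzymes had 6 of 12 members at least 1.5-fold lower and 1 higher (median -0.47). That median was -0.13 with no filter on low values and -0.26 without the 10 most abundant genes. CYP4F3, a fatty acid and leukotriene hydroxylase gene, was at 0.388 TPM in the DMSO library, 15.98 TPM after compound 1 and 5.25 TPM after compound 2 (-1.44). CYP1A1, the classic target of the aryl hydrocarbon receptor, was at 29.1 TPM in the DMSO library, 4.73 TPM after compound 1 and 2.07 TPM after compound 2 (-0.90). The retinal dehydrogenase gene ALDH1A3, at 304 TPM after compound 1 and 471 TPM after compound 2, was the higher member (0.63). GPX2, an epithelial glutathione peroxidase, was at 83.2 TPM in the DMSO library, 5.57 TPM after compound 1 and 2.18 TPM after compound 2 (-1.05). The ferritin genes, which store iron, were lower, with FTH1 at 7069 TPM in the DMSO library, 15729.6 TPM after compound 1 and 9605 TPM after compound 2 (-0.71) and FTL at 2572 TPM in the DMSO library, 3765 TPM after compound 1 and 2578 TPM after compound 2 (-0.55). Pseudogenes and other genes share 50.8% of the 31-base stretches of FTH1 and 33.2% of those of FTL, which makes their levels uncertain.

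**Figure D3:**
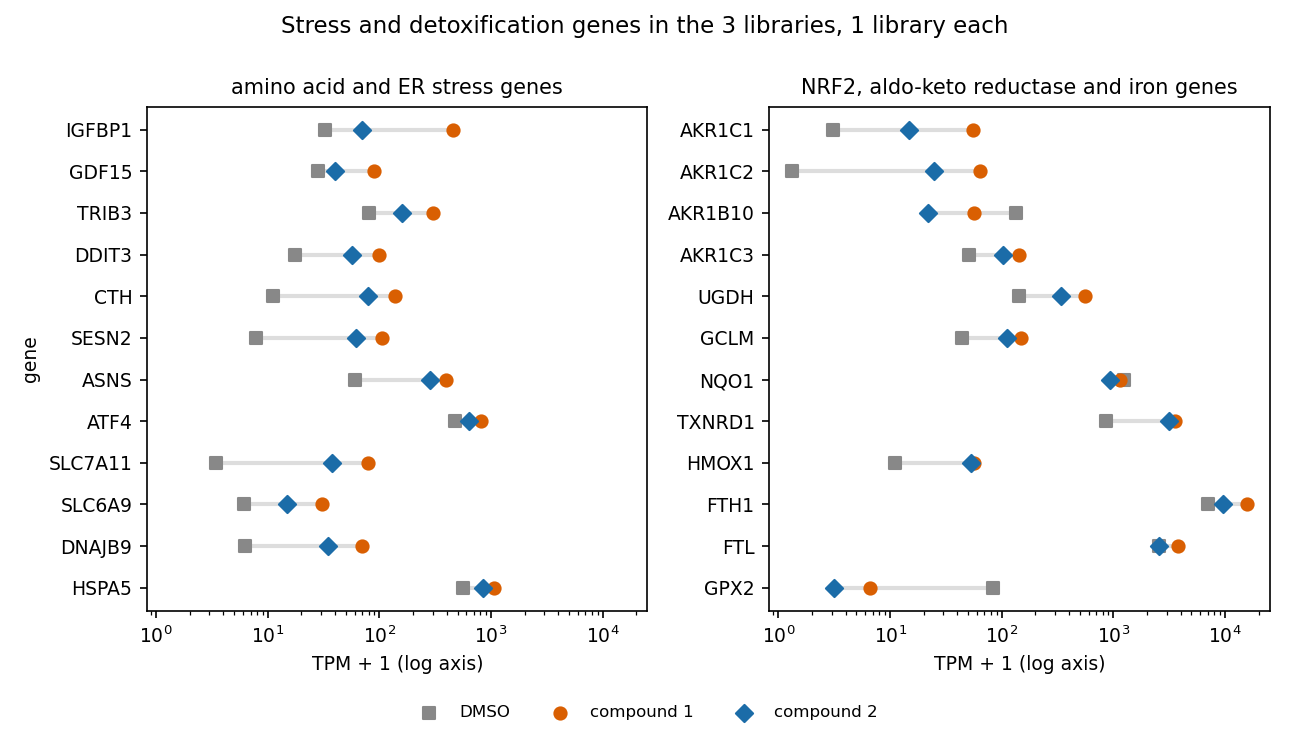
Levels as TPM + 1 on a log axis in the DMSO (grey square), compound 1 (orange circle) and compound 2 (blue diamond) libraries, 1 library each, for amino acid and endoplasmic reticulum stress genes at left and for NRF2, aldo-keto reductase and iron genes at right. In the left panel compound 2 lies between DMSO and compound 1 in every row, while AKR1B10, GPX2 and NQO1 at right are lowest after compound 2.

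DNA replication genes were low after either compound and less so after compound 2. All 40 listed genes were measured and all 40 had a ratio above 0, 14 of them at least 1.5-fold (median 0.56, range 0.11 to 0.96). Against the DMSO library all 40 were at least 2-fold lower after compound 1 (median -1.96) and 35 after compound 2 (median -1.48), where all genes had 8.09% and 6.56%. RRM2, the regulated subunit of ribonucleotide reductase, was at 302 TPM in the DMSO library, 44.3 TPM after compound 1 and 87.3 TPM after compound 2 (0.96, 33.1% shared with other genes). GINS2, a helicase subunit gene, was at 41.4 TPM in the DMSO library, 3.15 TPM after compound 1 and 6.68 TPM after compound 2 (0.89). The helicase loading gene CDC6 was at 172 TPM in the DMSO library, 32.6 TPM after compound 1 and 52.5 TPM after compound 2 (0.67). In each of these the DMSO level was at least 3-fold above the higher of the compound levels.

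Among the helicase subunits MCM2 to MCM7 the ratios ran from 0.31 (MCM6) to 0.66 (MCM2). PCNA, the sliding clamp, was at 394 TPM in the DMSO library, 80.03 TPM after compound 1 and 117 TPM after compound 2 (0.54), and the thymidylate synthase gene TYMS at 162 TPM in the DMSO library, 23.04 TPM after compound 1 and 38.8 TPM after compound 2 (0.73). DUT (0.11), POLD3 (0.12) and RFC2 (0.18) differed least.

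Mitosis and G2-M genes had the same pattern, with all 33 ratios above 0, 12 of them at least 1.5-fold (median 0.53). At least 2-fold below DMSO were 31 after compound 1 and 27 after compound 2. MYBL2 (ENSG00000101057, chromosome 20, 43667019 to 43716496), a transcription factor of the cell cycle, stood at 273 TPM in the DMSO library, 19.6 TPM after compound 1 and 41.5 TPM after compound 2 (1.04). The kinase gene AURKB was at 229 TPM in the DMSO library, 32.8 TPM after compound 1 and 61.9 TPM after compound 2 (0.90), CDK1 at 88.1 TPM in the DMSO library, 17.9 TPM after compound 1 and 31.1 TPM after compound 2 (0.76), and the proliferation marker MKI67 at 41.8 TPM in the DMSO library, 8.15 TPM after compound 1 and 14.5 TPM after compound 2 (0.76). The chromosome segregation genes SKA1 (1.12) and ERCC6L (1.11), outside the list, were past 2-fold. CDC25B (0.061) and PLK4 (0.004) differed least. These values are averages over all cells of a library, in which fewer cycling cells and less RNA per cycling cell cannot be told apart.

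Genes that govern entry into the cycle were mixed. Of 22 CDK inhibitor and G1 cyclin genes 2 were at least 1.5-fold higher, CCNE2 (0.91) and E2F1 (0.61), and 1 was lower, CDKN2B, the p15 gene (-0.81). E2F1 was at 51.6 TPM in the DMSO library, 10.001 TPM after compound 1 and 15.8 TPM after compound 2. CDKN2B was at 3.84 TPM in the DMSO library, 19.96 TPM after compound 1 and 10.96 TPM after compound 2.

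Genes of the ATR pathway itself differed little between the compounds. ATR (ENSG00000175054, chromosome 3, 142449235 to 142578826) stood at 10.3 TPM in the DMSO library, 15.5 TPM after compound 1 and 15.96 TPM after compound 2 (0.040). CHEK1, which encodes CHK1, was at 48.7 TPM in the DMSO library, 27.8 TPM after compound 1 and 31.6 TPM after compound 2 (0.18). The ATR activator gene TOPBP1 was at 28.4 TPM in the DMSO library, 19.9 TPM after compound 1 and 23.6 TPM after compound 2 (0.23), and ATRIP, whose transcript is shared with TREX1 for 32%, at 13.7 TPM in the DMSO library, 4.05 TPM after compound 1 and 4.10 TPM after compound 2 (0.014). Over the 20 checkpoint genes 18 ratios were above 0 and 2 were at least 1.5-fold higher, CDC25A (0.62) and PKMYT1 (0.84), with a median of 0.24. PKMYT1, a kinase that restrains CDK1, was at 58.7 TPM in the DMSO library, 10.4 TPM after compound 1 and 19.4 TPM after compound 2. CLSPN, the claspin gene that couples ATR to CHK1, was at 11.8 TPM in the DMSO library, 3.47 TPM after compound 1 and 5.29 TPM after compound 2 (0.49). RNA levels say nothing of kinase activity.

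Repair genes followed in part. Homologous recombination and Fanconi anaemia genes had 23 of 29 ratios above 0 (median 0.25, and 0.15 to 0.33 under the other settings), with the nuclease gene EXO1 (0.77) and the ubiquitin-conjugating gene UBE2T (0.59) at least 1.5-fold higher and 1 member lower by that much. BRCA1 was at 28.4 TPM in the DMSO library, 6.47 TPM after compound 1 and 9.82 TPM after compound 2 (0.53). No gene of break sensing and end joining (17 measured, median 0.10) or of base, mismatch and nucleotide excision repair (28 measured, median 0.075) was past 1.5-fold. The same held for 94.3% of all genes, so this is no trait of the repair lists. Within these 2 repair lists ATM stood at -0.093, H2AX at 0.41, PARP1 at 0.49 and UNG at 0.55. The p53 targets, 24 measured, had a median of -0.057 and 1 member past 1.5-fold, SESN2.

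**Figure D4:**
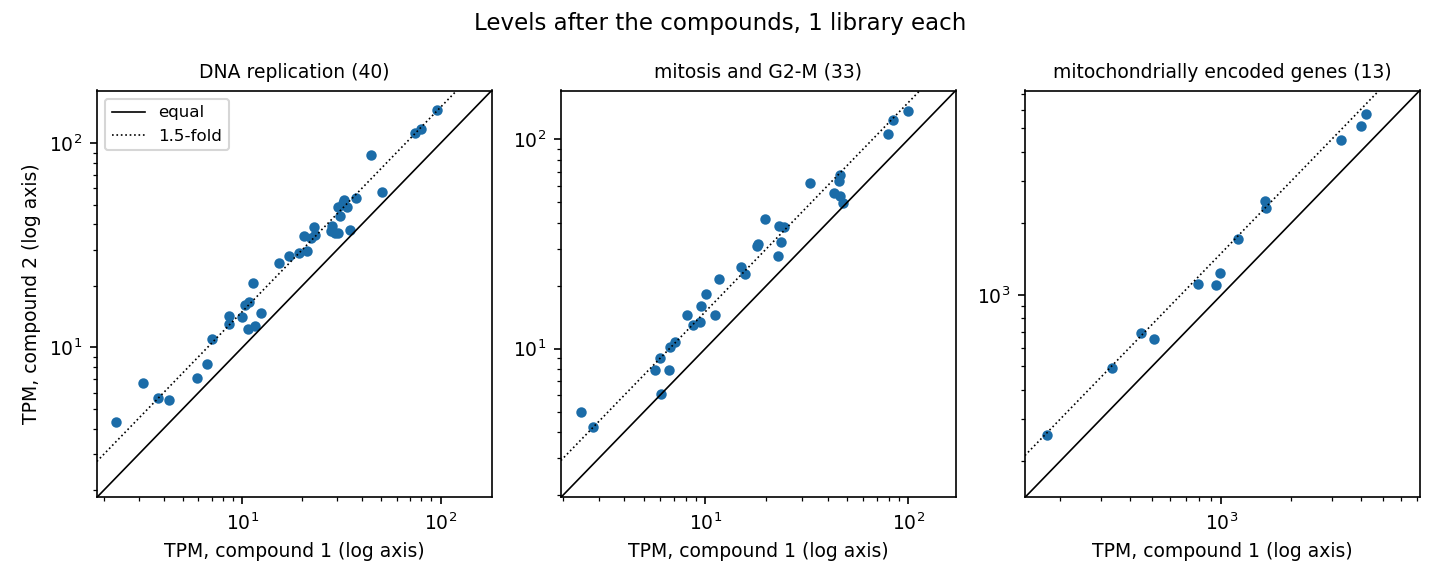
TPM after compound 2 against TPM after compound 1, both on log axes, for 40 DNA replication genes, 33 mitosis and G2-M genes and 13 mitochondrially encoded genes, 1 point per gene and 1 library per compound. The solid line marks equal TPM and the dotted line a ratio of 1.5, and every gene lies on or above the solid line.

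Mitochondrially encoded genes, all subunits of the respiratory chain and ATP synthase, were higher after compound 2 in 13 of 13 (median 0.48, range 0.22 to 0.68). Against the DMSO library 10 were at least 2-fold lower after compound 1 and none after compound 2 (medians -1.12 and -0.57). MT-CO1, a cytochrome oxidase subunit, was at 6448 TPM in the DMSO library, 4031 TPM after compound 1 and 5121 TPM after compound 2 (0.34). MT-ATP6, an ATP synthase subunit, was at 3661 TPM in the DMSO library, 1546 TPM after compound 1 and 2476 TPM after compound 2 (0.68), with 63.8% of its 31-base stretches found in other genes. The 30 nuclear respiratory chain genes had a median of 0.077 and none past 1.5-fold, and 94.3% of all genes were within it. Ribosome biogenesis genes were higher in 24 of 24, all by less than 1.5-fold (median 0.19), with the rRNA methylation gene FBL at 517 TPM in the DMSO library, 206 TPM after compound 1 and 268 TPM after compound 2 (0.38). Cytosolic ribosomal protein genes had 26 of 30 ratios below 0 and a median of -0.072.

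Metabolic lists stood near 0. Glycolysis and hypoxia genes had a median of 0.039 and 1 of 29 past 1.5-fold, the stress gene NDRG1, at 179 TPM in the DMSO library, 548 TPM after compound 1 and 277 TPM after compound 2 (-0.98). Cholesterol and fatty acid synthesis genes had 23 of 30 ratios below 0 (median -0.19). INSIG1, which retains the sterol sensor in the endoplasmic reticulum, was at 41.8 TPM in the DMSO library, 55.98 TPM after compound 1 and 26.3 TPM after compound 2 (-1.06). Compound 2 lay under the DMSO level and compound 1 above it. Heat shock genes had 14 of 17 ratios above 0, none past 1.5-fold (median 0.16), and 94.3% of all genes were within it.

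Lists of signalling genes around EGFR and protein kinase C had medians near 0, with single members further away. ERK feedback genes had 15 of 20 ratios below 0 and none past 1.5-fold (median -0.12), with the phosphatase gene DUSP6 at 36.6 TPM in the DMSO library, 97.4 TPM after compound 1 and 84.6 TPM after compound 2 (-0.20). Of all genes 94.3% were likewise within 1.5-fold. EGFR ligand and sheddase genes had a median of -0.084, and the amphiregulin gene AREG was at 341 TPM in the DMSO library, 677 TPM after compound 1 and 511 TPM after compound 2 (-0.41). In the receptor tyrosine kinase list ERBB3, at 26.1 TPM in the DMSO library, 37.7 TPM after compound 1 and 23.2 TPM after compound 2, was the only member of 16 past 1.5-fold (-0.68). AP-1 and immediate early genes had a median of -0.006 and 3 of 16 at least 1.5-fold lower, ATF3 (-0.82), JUND (-0.72) and NR4A2 (-0.67). That much lower were 3.14% of all genes. ATF3, which also belongs to the integrated stress response, was at 9.07 TPM in the DMSO library, 82.2 TPM after compound 1 and 46.2 TPM after compound 2. In the protein kinase C list PRKD3 (0.61) and RASGRP3 (-0.77) stood at opposite ends and the median was -0.023.

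Differentiation genes of the airway and of squamous epithelium had medians below 0. Mucin and secretory genes had 10 of 11 ratios below 0 (median -0.35). AGR2 (ENSG00000106541, chromosome 7, 16791811 to 16833433), a disulfide isomerase needed to fold mucins, stood at 113 TPM in the DMSO library, 262 TPM after compound 1 and 99.8 TPM after compound 2 (-1.38). MUC4 was at 11.6 TPM in the DMSO library, 7.82 TPM after compound 1 and 3.97 TPM after compound 2 (-0.83), and the lysozyme gene LYZ at 1.86 TPM in the DMSO library, 1.52 TPM after compound 1 and 0.083 TPM after compound 2 (-1.22). Squamous genes had 9 of 13 ratios below 0, 3 of them by 1.5-fold or more, and 4 above 0. Their median of -0.35 ran from -0.43 to -0.17 under the other settings. The largest difference was in KRT16, at 12.5 TPM in the DMSO library, 5.64 TPM after compound 1 and 1.86 TPM after compound 2 (-1.22, 39.5% shared). The clade B serpins SERPINB3 (-0.93) and SERPINB4 (-0.89), which share about 40% of their 31-base stretches, were lower, whereas SERPINB7 was at 3.39 TPM in the DMSO library, 75.9 TPM after compound 1 and 128 TPM after compound 2 (0.74). Of 13 mesenchymal and fibroblast genes measured, SPARC (0.63) alone was past 1.5-fold, and VIM was at 23.6 TPM in the DMSO library, 122 TPM after compound 1 and 153 TPM after compound 2 (0.33).

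Interferon-stimulated genes had 20 of 25 ratios below 0 and 1 at least 1.5-fold lower, IFIT2 (-0.82), with a median of -0.25. Antigen presentation and checkpoint ligand genes had none of 22 past 1.5-fold, and 94.3% of all genes were within it. CD274, the PD-L1 gene, was at 12.4 TPM in the DMSO library, 43.4 TPM after compound 1 and 40.3 TPM after compound 2 (-0.10). Clustered and linker histone genes had 4 of 15 at least 1.5-fold lower and H2BC9 (0.81) higher. H2AC6 was at 18.7 TPM in the DMSO library, 92.3 TPM after compound 1 and 47.2 TPM after compound 2 (-0.95). The 16 common reference genes had a median of 0.091, with 10 above 0 and 6 below it. TUBA1B, the alpha-tubulin gene and their only member past 1.5-fold, was at 4797 TPM in the DMSO library, 1298 TPM after compound 1 and 2163 TPM after compound 2 (0.74) and ACTB, the beta-actin gene, at 7152 TPM in the DMSO library, 5921 TPM after compound 1 and 8587 TPM after compound 2 (0.54), while GAPDH was at 11816 TPM after compound 1 and 12233 TPM after compound 2 (0.050).

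The remaining lists had medians close to 0 or held few members. They were -0.12 over 10 Kruppel-like factors, -0.20 over 11 prostaglandin genes (-0.31 to -0.034 under the other settings), -0.012 over 16 glutathione genes and -0.017 over 11 iron genes. Lists of secreted and adhesion genes had 0.24 over 11 activin, TGF-beta and BMP genes (0.13 to 0.27 under the other settings), 0.072 over 11 angiogenic factors, 0.11 over 15 laminin and integrin genes and 0.079 over 15 plasma protein genes. Marker lists of the tissue had -0.17 over 20 epithelial and -0.056 over 7 lung genes, with the lung lineage factor NKX2-1 at 19.9 TPM in the DMSO library, 8.74 TPM after compound 1 and 5.66 TPM after compound 2 (-0.55). In the epithelial list the splicing regulator ESRP1 was the only member past 1.5-fold, at 84.8 TPM in the DMSO library, 179 TPM after compound 1 and 112 TPM after compound 2 (-0.67). The osteopontin gene SPP1, in the plasma protein list, was at 605 TPM in the DMSO library, 87.1 TPM after compound 1 and 48.5 TPM after compound 2 (-0.83), and SERPINA1, the alpha-1 antitrypsin gene, at 64.4 TPM in the DMSO library, 129.7 TPM after compound 1 and 208 TPM after compound 2 (0.68).

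**Figure D5:**
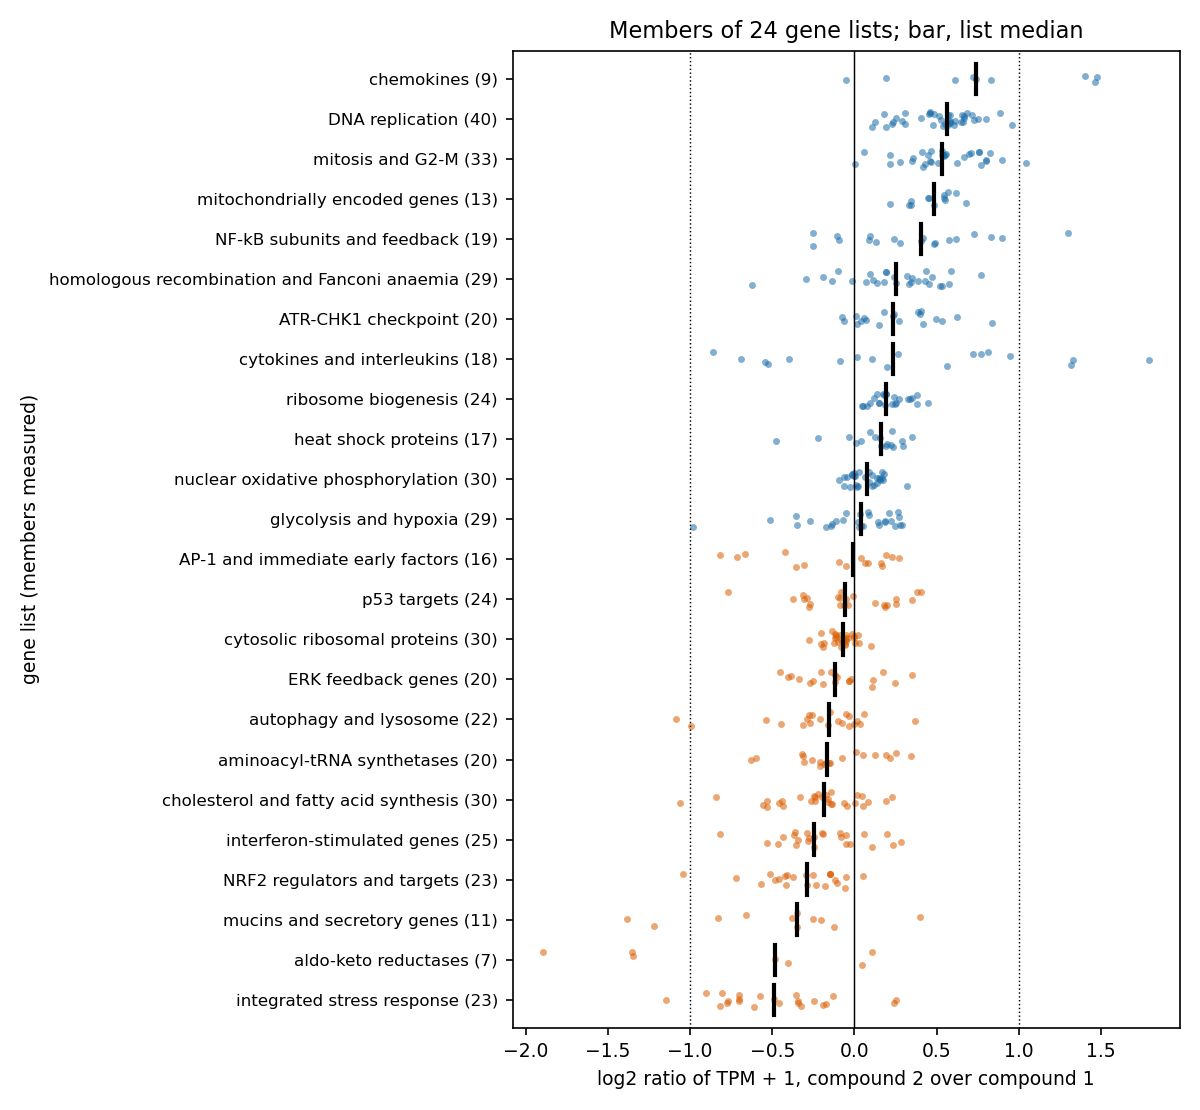
Each point is a measured gene of 24 gene lists, placed by its log2 ratio of TPM + 1 in the compound 2 library to that in the compound 1 library, with the number of members in brackets. Black bars are list medians, blue and orange mark medians above and below 0, and dotted lines mark 2-fold, with chemokines (0.74) at the top and the integrated stress response (-0.49) at the bottom.

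The genes past 2-fold were also read against DMSO one comparison at a time, with the same DMSO library in both. They were picked by the ratio between the compounds, so the order of the compounds against DMSO within each set follows from that choice. Over all 11600 genes, 14.7% were at least 2-fold above DMSO after compound 1 and 12.6% after compound 2. At least 2-fold below it were 8.09% and 6.56%. Of the 34 genes higher after compound 2, 19 were at least 2-fold above DMSO after compound 2 and 11 after compound 1, while 3 and 9 were at least 2-fold below it. Of the 64 lower genes, 34 were at least 2-fold above DMSO after compound 1 and 12 after compound 2, and 7 and 17 were at least 2-fold below it. For the lower genes the median ratio to DMSO was 1.11 after compound 1 and -0.32 after compound 2. For the higher genes it was -0.16 and 1.21.

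Several of the 98 genes cannot be separated from a near-identical copy or an overlapping transcript. MAGED4B was at 5.44 TPM in the DMSO library, 2.31 TPM after compound 1 and 11.4 TPM after compound 2, and its copy MAGED4 at 8.67 TPM in the DMSO library, 17.97 TPM after compound 1 and 6.13 TPM after compound 2. They appear on opposite sides of the comparison, and their sum was at 20.3 and 17.5 TPM after compounds 1 and 2, a ratio of -0.20. EIF3CL shares 99.4% of its 31-base stretches with EIF3C, and their sum had a ratio of 0.16. IFNAR2-IL10RB (-1.70), a readthrough transcript, shares 99.3% with other genes, and its sum with IFNAR2 had a ratio of 0.39. FAM156B (-1.21) summed with FAM156A had a ratio of -0.56. In these 4 cases the sum was within 1.5-fold. For the family gene NPIPA7 (1.47) and the defensin gene DEFB103A (-1.30) the sum could decide nothing. The copy NPIPA8 was listed at 0 after both compounds, and DEFB103B was at 0.272 TPM after compound 1 and 0 after compound 2. The sums therefore repeat the genes' own ratios, at 1.47 and -1.31. NPIPA7 shares 94.7% of its 31-base stretches, and further copies of its family were not summed. LRTOMT (-1.90), H4C15 (-1.38) and CRAMP1 (-1.49) share between 52.9% and 100% and are likewise uncertain. PPIP5K1 (1.48), at 21.7 TPM in the DMSO library, 10.6 TPM after compound 1 and 31.4 TPM after compound 2, shares 55.3%, all of it with the annotated gene AC011330.1. Of the 10 genes past 2-fold that have no symbol in the table, 3 were higher and 7 lower. ENSG00000288634, at 0 in the DMSO library and after compound 1 and 4.16 TPM after compound 2, had the highest ratio of all genes (2.37). ENSG00000285133 (-2.28) and ENSG00000267228 (-2.27) were at 3.85 and 3.83 TPM after compound 1 and at 0 otherwise. They share 100% and 97.9% of their 31-base stretches with other genes.

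The other higher genes were of varied roles. S100A3, a calcium-binding protein gene, was at 2.81 TPM in the DMSO library, 0.87 TPM after compound 1 and 6.50 TPM after compound 2 (2.00). POMT2, a protein mannosyltransferase gene, was at 10.6 TPM in the DMSO library, 14.2 TPM after compound 1 and 39.5 TPM after compound 2 (1.42). The mitochondrial aminopeptidase gene XPNPEP3 was at 4.66 TPM in the DMSO library, 4.79 TPM after compound 1 and 14.8 TPM after compound 2 (1.45). ARHGAP31, a GTPase-activating protein gene, was at 0.037 TPM in the DMSO library, 1.40 TPM after compound 1 and 7.33 TPM after compound 2 (1.80). These genes differed in where DMSO lay, since XPNPEP3 was level with compound 1 and S100A3 was above it. GLIPR1 (1.13), KBTBD3 (1.37), TMEM40 (1.29), PODNL1 (1.19), the ubiquitin hydrolase gene UCHL1 (1.16), the lysyl oxidase gene LOXL3 (1.13), the sodium pump regulator gene FXYD2 (1.09) and the kinase gene NUAK2 (1.00) made up the rest with a symbol, together with the readthrough ARHGAP11A-SCG5 (1.24).

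Lower genes not named above were mostly at low levels. BEX2 was at 6.96 TPM in the DMSO library, 43.8 TPM after compound 1 and 18.7 TPM after compound 2 (-1.18). FLRT3, an adhesion protein gene, was at 4.25 TPM in the DMSO library, 22.3 TPM after compound 1 and 9.40 TPM after compound 2 (-1.16). The proline isomerase gene FKBP14 was at 8.56 TPM in the DMSO library, 34.9 TPM after compound 1 and 16.4 TPM after compound 2 (-1.04). In these 3 genes compound 2 lay between DMSO and compound 1. C11orf86 (-2.22) and the calcium-binding protein gene S100P (-1.58) were above DMSO after compound 1 and below it after compound 2, all at under 10 TPM. SMCO4 was at 41.2 TPM in the DMSO library, 24.6 TPM after compound 1 and 9.79 TPM after compound 2 (-1.25), GRAMD4 at 14.98 TPM in the DMSO library, 25.3 TPM after compound 1 and 10.2 TPM after compound 2 (-1.24) and the semaphorin gene SEMA3B at 6.87 TPM in the DMSO library, 22.2 TPM after compound 1 and 9.94 TPM after compound 2 (-1.09). The adenosine receptor gene ADORA1 was at 14.7 TPM in the DMSO library, 2.43 TPM after compound 1 and 0.617 TPM after compound 2 (-1.08), and the water channel gene AQP3 at 12.5 TPM in the DMSO library, 9.20 TPM after compound 1 and 3.59 TPM after compound 2 (-1.15), so that both were lowest after compound 2. APOBEC1 (-1.69), the histone gene H2BC15 (-1.54), NECAB2 (-1.50), TREM1 (-1.39), CSAD (-1.36), the neuronal microtubule gene MAP2 (-1.36), ZNF114 (-1.35), TRIM54 (-1.32), NDUFA4L2 (-1.31), CPLANE2 (-1.27), the splicing factor gene U2AF1L4 (-1.26) and FOXQ1 (-1.20) averaged under 5 TPM over the 3 libraries. So did GGACT (-1.18), VEPH1 (-1.17), PLXND1 (-1.17), LEMD1 (-1.10), PPM1N (-1.06), TRANK1 (-1.05), TBC1D32 (-1.03) and MAGIX (-1.02). The ubiquitin ligase gene TRIM31 (-1.15) and the membrane protein gene EMP1 (-1.14), at 18.1 TPM in the DMSO library, 22.1 TPM after compound 1 and 9.49 TPM after compound 2, completed the group. The C/EBP-ATF element TGATGNAAN stood in 3 of the 43 lower genes with a promoter, in 0 of the 27 higher genes and in 1.3% of kept genes, against 3.2% of all promoters.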

How the data were processed

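HCC827 cells were profiled after DMSO, compound 1 or compound 2, with 1 library each. Total RNA was extracted with Trizol and sequenced from Illumina TruSeq RNA libraries, per the labels' protocols. The sources used here do not say whether reads were counted by strand. The submitters' processing notes list Bowtie 0.12.2 and the builds GRCh38.p12 and mm8 without a role or order. The deposited headers name FPKM, but each column sums to 1000000, so the values the authors deposited are on the TPM scale and are called TPM. TPM is a share, so genes that gain share lower all others. Read counts and depth were not used here.

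The log2 ratio of TPM + 1 was computed for genes averaging at least 1 TPM. The pseudocount of 1 shrinks the ratios of low genes. The planned design took the values for FPKM, and the description without a test is the same for TPM. No p-value or SD is given. Annotation came from GENCODE 29 (GRCh38) and promoters from RefSeq (GRCh38.p14). Of 20332 identifiers 20113 were in GENCODE 29, and 70 of the 98 genes past 2-fold had a promoter. Shared sequence is the percentage of the 31-base stretches of a gene's longest transcript found in other genes. Motifs were GGG and CC with 5 bases between them, TGACNNNGC, TGATGNAAN and TGANTCA, searched on both strands.

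Members and 57 gene lists were chosen with earlier results of these data known. Named genes were the 20 highest and 20 lowest ratios, up to 4 members of each list with the largest absolute ratio, any list member past 2-fold, lists with fewer than 5 measured members in full, and ATR, ATRIP, CHEK1, TOPBP1 and EGFR. Not all of them are printed. The 43 other genes past 2-fold, and list members named for a known role, were added after their values were seen. Alternatives covered the pseudocount, the filter, the scaling, the length and GC trend and the threshold. The computation was tested on simulated data. Python 3.11.15 was used with numpy 2.4.6, pandas 2.3.3, scipy 1.17.1 and matplotlib 3.10.9.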

Additional observations from a re-analysis of the deposited data

Results flagged for a closer look

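In 6 of the 11600 genes compared, the compounds stood on opposite sides of the DMSO library by at least 1.5-fold each. The difference was not tested, since each group is 1 library, and all 6 were under 12 TPM in each library. After compound 2 against compound 1 the log2 ratio was -2.216 for C11orf86, which was at 2.56 TPM in the DMSO library, 8.99 TPM after compound 1 and 1.15 TPM after compound 2. S100P had a ratio of -1.58, from 1.72 TPM in the DMSO library, 4.34 TPM after compound 1 and 0.787 TPM after compound 2. The reverse order was seen for S100A3, with a ratio of 2.003, and for MAGED4B, with a ratio of 1.908. All 31-base stretches of the longest MAGED4B transcript also occur in MAGED4, whose ratio was in the opposite direction. LRTOMT (ratio -1.901) and ENSG00000284057 (ratio -1.93) share at least 98.0% of their 31-base stretches with other genes, so their values are uncertain.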

How the results depend on the processing

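With 1 library per group and no counts, differences between cultures and counting error cannot be separated from differences between the compounds. No paired analysis was possible because each group holds 1 library and no test was run. The counts past 2-fold depend on how low genes are treated. Compound 2 was at least 2-fold higher in 107 and lower in 152 genes at a pseudocount of 0.1, in 13 and 16 at a pseudocount of 5, and in 22 and 31 at a mean of at least 5 TPM, against 34 and 64. At 1.5-fold they were 300 and 364. Without a filter they were 44 and 74, and without genes that share over 30% of their 31-base stretches, a setting added after seeing the data, 29 and 47. The share of higher genes was 34.7% and 33.0% to 44.8% under the other pseudocounts, filters and scalings, with 45.2% at 1.5-fold. No scaling moved the median of all genes by more than 0.01. A change of sign was called reversed only for list medians of at least 0.2 in absolute value and for named genes past 2-fold. None of these changed sign under any setting run, while smaller values could change sign without being called. Of the recomputed list medians 535 stayed within 0.2 of the value given on the log2 scale, which for a small median can exceed 1.5 times, and 4 moved further. Fibrinogen and plasma proteins had -0.16 at a mean of at least 5 TPM against 0.079 in the main setting, a change of sign. Xenobiotic and aldehyde enzymes had -0.13 with no filter and -0.26 without the 10 most abundant genes. IGF binding proteins had -0.007 with no filter. Of the recomputed ratios of named genes 2409 stayed within 1.5-fold of the value given and 42 moved further, all at a pseudocount of 0.1 or 5.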
